A study of Homo sapiens with 5 samples.

Results

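H4K12la peaks were described in the subtelomeric windows of the autosomes, meaning the outermost 1 Mb of each chromosome end, and set against the next 4 Mb inward. A window counted from the first base of the assembly on the short arm, and from the largest peak end of the chromosome over the 4 H4K12la lists on the long arm. Short arms of chromosomes 13, 14, 15, 21 and 22, which are acrocentric, were left out, so 39 ends were used, 17 of short and 22 of long arms. The windows held 9742 of the 404457 peaks of all 5 lists. They held 2038 and 1709 of 82382 and 68980 H4K12la peaks in dexamethasone replicates 1 and 2. They held 290 of 8065 GR peaks, and 3066 and 2639 of 129848 and 115182 H4K12la peaks in control replicates 1 and 2. All libraries were made from 786-O, a cell line of human renal carcinoma, by CUT&Tag, in which an antibody guides a transposase to cut and tag the chromatin around its target. The groups were H4K12la in cells given 10 µM dexamethasone for 48 h (2 libraries), GR in cells given the same dexamethasone treatment (1 library) and H4K12la in untreated cells (2 libraries). All 5 carry 1 batch label, and the labels name neither separate cultures nor a GR library without dexamethasone.

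H4K12la is the lactyl mark on lysine 12 of histone H4, an acylation derived from lactate that has been found at promoters and enhancers of active genes. GR, the glucocorticoid receptor NR3C1, is the transcription factor that dexamethasone, a synthetic glucocorticoid, binds and sends to the nucleus. Human chromosomes end in tandem telomere repeats bound by the shelterin complex. Inside the repeats lie subtelomeres, which mix families copied between several ends, such as WASH, OR4F and DUX4, with some of the most gene-rich stretches of the genome.

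The sequences that bear on these windows are of several kinds. Those of miR-6859 and miR-941 show how alike the copies are that the peak lists have to tell apart, and those of PTBP1, NCAPG2 and RTEL1 are promoters with high control peaks. All come from RefSeq on GRCh38.p14, 5′ to 3′. In the mature miRNAs the capitals mark the seed, bases 2 to 8, and in the promoters, which run from 250 bases before to 50 after the gene's start, they mark the GC box GGGCGG or its reverse complement CCGCCC.
hsa-miR-6859-5p: gAGAGGAAcaugggcucaggaca
hsa-miR-6859-3p: uGACCCCCaugucgccucuguag
hsa-miR-941: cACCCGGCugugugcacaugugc
PTBP1 promoter, chr19:797202-797501, plus strand: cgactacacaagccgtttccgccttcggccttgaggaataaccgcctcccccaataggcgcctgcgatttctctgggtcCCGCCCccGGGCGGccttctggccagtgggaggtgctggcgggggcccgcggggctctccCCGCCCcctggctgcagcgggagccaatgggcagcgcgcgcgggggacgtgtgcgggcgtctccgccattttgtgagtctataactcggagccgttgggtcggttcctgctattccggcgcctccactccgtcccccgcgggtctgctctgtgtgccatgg
NCAPG2 promoter, chr7:158704755-158705054, minus strand: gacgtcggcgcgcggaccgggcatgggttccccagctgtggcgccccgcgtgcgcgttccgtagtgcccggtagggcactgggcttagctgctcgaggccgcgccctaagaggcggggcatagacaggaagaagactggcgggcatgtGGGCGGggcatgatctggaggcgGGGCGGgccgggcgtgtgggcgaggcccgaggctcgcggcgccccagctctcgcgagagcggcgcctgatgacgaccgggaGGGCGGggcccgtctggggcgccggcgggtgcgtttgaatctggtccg
RTEL1 promoter, chr20:63657560-63657859, plus strand: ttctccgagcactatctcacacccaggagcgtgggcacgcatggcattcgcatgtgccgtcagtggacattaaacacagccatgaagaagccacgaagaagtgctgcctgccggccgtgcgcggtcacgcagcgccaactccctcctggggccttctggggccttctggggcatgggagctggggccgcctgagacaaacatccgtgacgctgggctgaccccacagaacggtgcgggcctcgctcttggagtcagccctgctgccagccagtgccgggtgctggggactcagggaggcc
MIR6859 lies at 4 places, 2 on 1p and 1 each on 15q and 16p, and its 4 hairpins have 1 sequence between them. MIR941 has 5 mature copies of 1 sequence in a tandem array on 20q. The PTBP1 and NCAPG2 promoters each held 3 GC boxes, and this RTEL1 promoter held none.

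H4K12la peaks were denser in the outermost 1 Mb than in the next 4 Mb in all 4 libraries. Terminal density was 52.3 and 43.8 peaks per Mb with dexamethasone and 78.6 and 67.7 per Mb in controls, and inward density was 44.8 and 38.3 per Mb with dexamethasone and 66.2 and 57.4 per Mb in controls. The terminal to inward ratio was therefore 1.17 and 1.14 with dexamethasone and 1.19 and 1.18 in controls, with a mean of 1.17 ± 0.020 over the 4 libraries (SD). An exact two-sided sign-flip permutation test over the 4 libraries gave p = 0.125, the smallest p that 4 libraries allow. GR peaks were more concentrated, at 7.44 terminal and 4.62 inward peaks per Mb, a ratio of 1.61 from 1 library. The excess was not a feature of the last Mb alone. Against only the next 1 Mb, the ratio averaged 0.96 with dexamethasone and 0.99 in controls, which turns its direction, while GR kept a ratio of 1.21.

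Density followed a course within the windows that the average hides. The outermost 250 kb were the sparsest stretch of the window, with 42.9 and 34.4 peaks per Mb under dexamethasone and 59.1 and 49.8 per Mb in controls. Density was highest between 500 and 750 kb, at 58.2 and 49.5 per Mb under dexamethasone and 91.3 and 79.1 per Mb in controls. At the edge of the window, the last 100 kb inside held 205 and 184 peaks with dexamethasone, 31 GR peaks, and 296 and 256 peaks in controls. The first 100 kb outside held 232 and 206 peaks with dexamethasone, 25 GR peaks, and 375 and 326 peaks in controls. Each H4K12la list thus held more peaks just outside the window than just inside it.

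**Figure D1:**
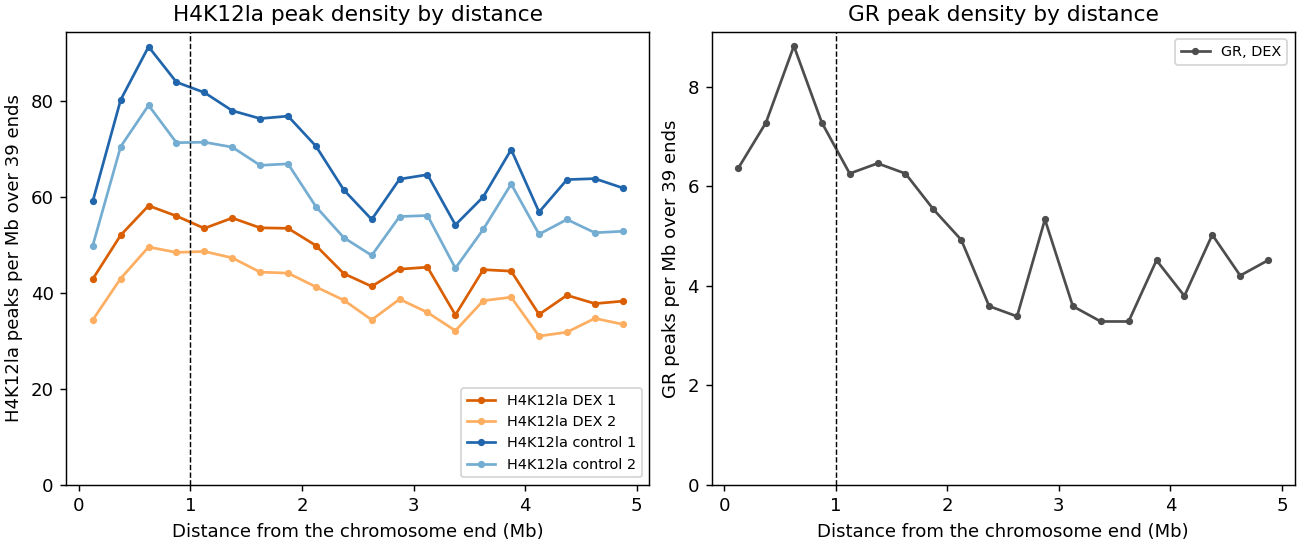
Peaks per Mb over 39 chromosome ends (y axis) in 250 kb bins of distance from the end (x axis, Mb), with 1 line per library, H4K12la on the left and GR on the right, and a dashed line at 1 Mb. All 4 H4K12la lines are low in the first bin, highest between 0.5 and 0.75 Mb and lower beyond about 2 Mb.

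Coding genes were also denser at the ends. The terminal windows held 697 protein-coding genes, 17.9 per Mb, against 1711 inward, 10.97 per Mb, a ratio of 1.63, and 30 of 39 ends had more genes per Mb in the terminal window. Peaks at gene ends, meaning within 1 kb of either end of a coding gene, had a terminal to inward density ratio of 1.63 and 1.43 with dexamethasone and 1.53 and 1.53 in controls. Peaks elsewhere had a ratio of 1.12 and 1.11 with dexamethasone and 1.14 and 1.12 in controls. Counted per coding gene the order was the other way round: 2.92 and 2.45 terminal against 4.09 and 3.50 inward peaks per gene with dexamethasone, and 4.40 and 3.79 terminal against 6.03 and 5.23 inward peaks per gene in controls. Across the 39 ends, the log2 number of terminal peaks and of terminal coding genes had a Pearson correlation of 0.62 and 0.57 with dexamethasone, 0.86 for GR, and 0.68 and 0.67 in controls. Spearman correlations were 0.39 and 0.37 with dexamethasone, 0.81 for GR, and 0.49 and 0.50 in controls. The points of a library share its depth, so these are descriptions.

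The ends differed far more among themselves than the libraries did. All 4 H4K12la lists were denser in the terminal window at 20 ends and sparser at 10. The 5 ends with the highest mean ratio were 8p, 5p, 10p, 12q and 20q. At 5p the terminal window held 104 and 88 peaks with dexamethasone, 10 GR peaks, and 138 and 117 peaks in controls. Its next 4 Mb held 29.3 and 25.3 peaks per Mb with dexamethasone, 0.25 GR peaks per Mb, and 22 and 15.3 peaks per Mb in controls. That window carries 14 coding genes, among them SDHA, a subunit of succinate dehydrogenase, and BRD9, a subunit of a SWI/SNF chromatin remodelling complex. At 8p the window had few peaks, 20 and 16 with dexamethasone and 29 and 27 in controls, beside an inward stretch with only 2.25 and 2.25 per Mb with dexamethasone and 6.25 and 5 per Mb in controls.

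The 5 ends with the lowest ratio were 20p, 4q, 1q, 3p and 14q. The 14q window, which has 0 annotated coding genes and holds the immunoglobulin heavy chain locus, had 7 and 8 peaks with dexamethasone and 4 and 5 in controls. Its next 4 Mb had 78 and 64.3 peaks per Mb with dexamethasone and 117 and 103 per Mb in controls. The 3p window, whose 1 coding gene is the neural adhesion gene CHL1, had 1 peak in each dexamethasone library and 2 in each control library. At 1q, where olfactory receptor genes lie, 33 coding genes came with 18 and 10 peaks with dexamethasone and 23 and 17 in controls. A high count of genes was therefore not always matched by a high count of peaks.

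**Figure D2:**
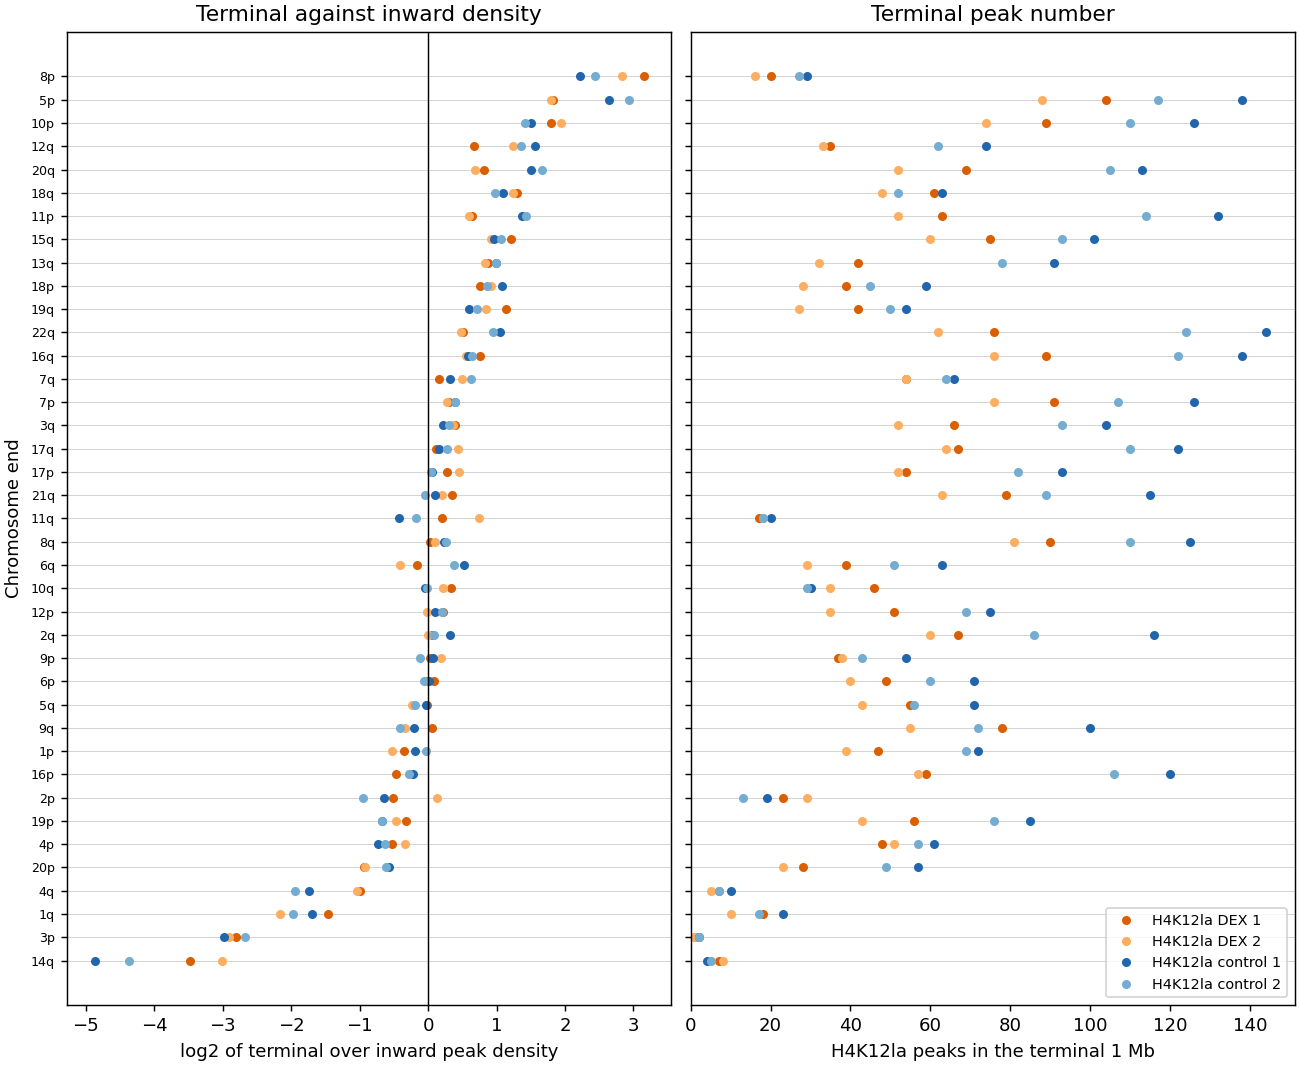
Each row is 1 of 39 chromosome ends, ordered by mean ratio, with 1 point per H4K12la library, showing the log2 of terminal over inward density on the left and the number of terminal peaks on the right. Points of 1 end lie close together on the left panel while ends spread widely, and on the right panel the dexamethasone points lie left of the control points at most ends.

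Peak heights, the signal at the summit that the authors deposited, differed little between the zones at the median. The median height was 28 and 29 terminal against 26 and 27 inward with dexamethasone, and 28 and 30 terminal against 27 and 29 inward in controls. The ratio was above 1 in all 4 libraries (mean 1.06 ± 0.023, SD; exact two-sided sign-flip permutation test p = 0.125, the smallest possible) but was 0.98 in controls against the next 1 Mb. The tall end of the distribution differed more. Peaks of height 100 or more were 1.23% and 1.29% of terminal against 0.501% and 0.502% of inward peaks with dexamethasone, and 3.13% and 3.45% of terminal against 2.53% and 2.95% of inward peaks in controls. Of the 1000 tallest peaks of each autosomal list, 102 and 88 were terminal with dexamethasone and 35 and 38 in controls. The terminal windows held 2.57% and 2.57% of all autosomal peaks with dexamethasone and 2.48% and 2.40% in controls. The inward windows showed the same contrast, with 229 and 206 of the 1000 tallest with dexamethasone and 69 and 59 in controls.

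The dexamethasone lists held fewer terminal peaks than the control lists, in about the same proportion as inward. The terminal windows held 1873.5 ± 233 peaks with dexamethasone and 2852.5 ± 302 in controls (SD, n = 2 each), a ratio of 0.657, against 0.673 in the inward windows and 0.623 over all autosomes. Each of these differences gave p = 0.333 in a two-sided exact permutation test over the 4 libraries, the smallest p that 2 against 2 allow. The depth of the libraries is unknown, so fewer peaks after dexamethasone and a shallower library cannot be told apart. In both dexamethasone libraries the count lay below both controls at 31 of 39 ends, where the same held for 84.6% of the inward windows. The 3 ends with more peaks in both dexamethasone libraries, where 2.56% of inward windows had more, were 2p, 10q and 14q. At 2p there were 23 and 29 with dexamethasone and 19 and 13 in controls, and at 10q 46 and 35 with dexamethasone and 30 and 29 in controls.

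Peaks that overlapped by at least 1 bp were merged into 4078 terminal H4K12la regions. Of the 2030 regions found in both control lists, 638 were in neither dexamethasone list, which is 31.4% (95% exact Clopper-Pearson interval 29.4 to 33.5, covering counting error only). Over all autosomes the same share was 39.3%, and in the inward windows 33.0%. Of 1178 regions in both dexamethasone lists, 109 were in neither control list, 9.25% (7.66 to 11.1), against 13.9% over all autosomes and 11.7% inward. Both terminal shares were below those of all autosomes. With only the 66376 tallest peaks of each autosomal list, 28.7% were control-only and 285 regions were dexamethasone-only. With 1 library left out, a region has to be found in, or absent from, fewer lists, and dexamethasone-only regions numbered 333 and 441 when dexamethasone replicate 1 or 2 was left out, and 199 and 161 when control replicate 1 or 2 was. At gene ends 41.2% of regions held by both controls were control-only, and elsewhere 28.8%, against 40.1% and 39.1% over all autosomes and 38.2% and 32.0% inward.

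The 931 terminal regions in all 4 lists were nearly balanced in height. Both dexamethasone heights stood below both control heights in 299, or 32.1%, against 39.4% over all autosomes and 34.8% inward. Both stood above in 278, or 29.9%, against 26% over all autosomes and 30.7% inward. At gene ends the balance was different, with 54.2% below and 18.3% above. All autosomes had 71.1% below and 10.4% above there, and the inward windows 59.1% below and 12.4% above. The median ratio of heights was 1.02 over terminal regions and 0.742 over those at gene ends. Inward these ratios were 1 and 0.75, and over all autosomes 0.956 and 0.516.

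The outermost region of each end was looked at on its own, and 13 of the 39 are called tips here. A tip begins within 11 kb of the first base on a short arm (8 ends), or has a height of 79 or more in both controls on a long arm (5 ends). The long-arm tips were thus admitted by their control height, so a lower or missing dexamethasone height there is partly set by the choice, while the short-arm tips were taken by position alone. The tallest terminal peak of both control lists lay at the tip of 5p, chr5:10076-11796, with 317 and 274 under dexamethasone and 1267 and 1138 in controls. The tip of 1p, chr1:10002-10467, had 135 and 99 under dexamethasone and 504 and 473 in controls. The tip of 1q had 114 and 100 under dexamethasone and 511 and 435 in controls, and that of 22q had 95 and 81 under dexamethasone and 382 and 346 in controls. Smaller peaks kept the same proportion, with 41 and 36 under dexamethasone and 155 and 137 in controls at 3p, and 33 and 29 under dexamethasone and 135 and 101 in controls at 18p. In all 6 the 2 groups did not overlap, and the ratio of mean heights kept within 0.226 and 0.264.

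At the other 7 tips the dexamethasone lists had no peak. Control heights were 296 and 241 at 10p, 229 and 231 at 18q, 153 and 139 at 15q, 110 and 102 at 10q and 97 and 79 at 12p. The tips of 9p (30 and 36) and 16p (33 and 33) were low. Of the outermost regions of all 39 ends, 11 were in all 4 lists, 12 in controls only, 4 with dexamethasone only (2p, 16q, 20p and 20q) and 12 in another combination. Over all autosomes, 39.3% of regions in both controls were control-only, and 13.9% of those in both dexamethasone lists were dexamethasone-only. The 39 are regions of any list, so their counts are not on the base of these shares. Of 180420 autosomal regions of any list, 28987 were in all 4 lists, 32189 in controls only and 5635 with dexamethasone only. In the 11 in all 4 lists, both dexamethasone heights lay below both controls in 6, all of them tips, and above in 3. Over all autosomes these shares were 39.4% and 26%. The ratios of the 11 ran from 0.226 to 1.72. The outermost region of 3q, for example, had 29 and 33 with dexamethasone and 17 and 19 in controls. Regions that began within 11 kb of the first base were found at 8 short-arm ends, 4 in all 4 lists, all lower with dexamethasone, and 4 in controls only. No outermost region of these 8 lay at a coding gene end.

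Among 79 other regions within 30 kb of an end, 22 were in all 4 lists, 2 were dexamethasone-only and 14 were control-only. Over all autosomes, 13.9% of regions in both dexamethasone lists were dexamethasone-only, and 39.3% of those in both control lists were control-only. The 79 are regions of any list, so their counts are not on the base of these shares. In the 22, both dexamethasone heights lay below both controls in 2 and above in 6, against 39.4% and 26% over all autosomes. The median ratio in the 22 was 1.02. These tips were singled out after their values were seen, and no test was made over them. The peak sequences were not read, so how much telomere repeat these regions hold was not tested, and how the aligner placed reads that match several ends is not given in the sources used here.

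**Figure D3:**
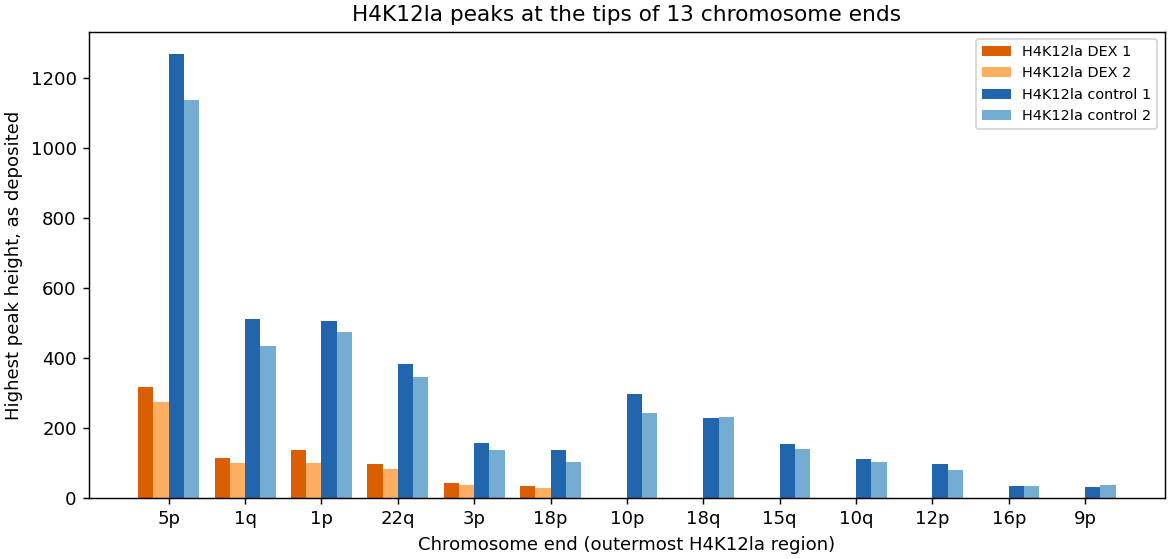
Highest deposited peak height (y axis) in the outermost H4K12la region of 13 chromosome ends (x axis), with bars for dexamethasone replicates 1 and 2 and control replicates 1 and 2; no bar means no peak listed. The 8 short-arm ends were taken by position and the 5 long-arm ends by a control height of 79 or more; dexamethasone bars are at 0.226 to 0.264 of the control mean at 6 ends and missing at 7.

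A second tall group in control libraries alone lay on 1p over pseudogenes copied from the mitochondrial genome. Regions over MTND1P23 and MTND2P28 (chr1:629364-629997) had 608 and 684, and 2 regions over MTCO1P12 had 384 and 403, and 487 and 485. The dexamethasone libraries had no peak there. A single GR peak of 5653 bp, chr1:629147-634799, overlapped all 7 such pseudogenes and was the longest terminal GR peak. The peaks listed on the mitochondrial chromosome itself were higher than any of these, reaching 3008 and 2955 with dexamethasone and 6517 and 7370 in controls. Whether reads of mitochondrial DNA form the 1p peaks was not tested.

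Of the families copied between ends, WASH had peaks in both groups at like heights. All 7 copies of WASH, which encodes a subunit of an actin-nucleating complex on endosomes or is its pseudogene, had peaks in all 4 lists, at 6 ends. Their heights overlapped between groups at 4 copies and were higher with dexamethasone at 3, with ratios from 0.88 to 1.24. Over all autosomes, 26% of regions in all 4 lists were higher with dexamethasone. WASH7P on 1p had 109 and 99 with dexamethasone and 108 and 98 in controls. The peak at MIR6859-1, which lies inside WASH7P, had 109 and 96 with dexamethasone and 108 and 98 in controls, although the identical hairpins MIR6859-2 and MIR6859-3 had none and MIR6859-4 had 47 in control replicate 2 only. A read that lies wholly inside the identical hairpin sequence cannot be assigned to 1 of its places, so values at single hairpins are uncertain. The sequences of the WASH copies were not compared, so how far this holds for the values of single WASH copies is unknown. Of 11 CICP pseudogenes, 7 and 7 had a peak with dexamethasone and 5 and 4 in controls. The 2 in all 4 lists were both higher with dexamethasone, at ratios of 1.34 and 1.72, where 26% of autosomal regions in all 4 lists were. No copy of OR4F, FAM138, SEPTIN14P or TUBB8 had a peak in all 4 lists, and 1 of 24 DUX4 copies did.

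DUX4, an early embryonic transcription factor gene repeated in an array on 4q, had an internal region (chr4:190177715-190180006) of 390 and 406 with dexamethasone and 375 and 335 in controls. MIR941 on 20q, a tandem miRNA array, had 1 peak over 4 hairpins of 77 and 87 with dexamethasone and 66 and 65 in controls. Both stood higher in each dexamethasone library than in either control. MIR3124 on 1q went the other way, with 0 and 26 with dexamethasone, 124 and 103 in controls, and a GR peak. OR4F genes, which encode olfactory receptors, had a peak in 2 and 0 of 17 copies with dexamethasone and 4 and 2 in controls. Of 41 terminal miRNA hairpins, 8 and 8 had a peak with dexamethasone, 3 had a GR peak, and 9 and 11 had one in controls.

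Other tall terminal regions of all 4 lists lay inside or near genes. A region within NCAPG2, a condensin II subunit, on 7q (chr7:158667260-158668387) had 599 and 573 with dexamethasone and 813 and 737 in controls. A region in the pseudogene ROCK1P1 on 18p had 633 and 620 with dexamethasone and 584 and 558 in controls. A region on 7p near PRKAR1B, a regulatory subunit of protein kinase A, had 62 and 50 with dexamethasone and 335 and 313 in controls, a ratio of 0.173 and the lowest of the 8 tallest. The tallest control-only regions inside genes were in AHRR, the repressor of the aryl hydrocarbon receptor, on 5p with 234 and 231, in the forkhead factor gene FOXK2 on 17q with 281 and 208, and in CSNK2A1, a casein kinase 2 catalytic subunit, on 20p with 161 and 155.

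Regions of dexamethasone libraries alone were low. The tallest lay in GAK, a kinase of clathrin uncoating, on 4p with 69 and 56, and in the palmitoyltransferase gene ZDHHC11B on 5p with 55 and 52. ZNF672 on 1q followed with 44 and 43, a region near CAPN15 on 16p with 40 and 39, and SH3BP5L on 1q with 36 and 36. ACP1, a low molecular weight phosphatase, had 33 and 39, and a region near SH3YL1 had 36 and 33, both on 2p, and the splicing factor gene PRPF6 on 20q had 38 and 32. No terminal region of this class carried a GR peak, as was the case for all but 2 of 5635 such regions over all autosomes. The 8 regions of all 4 lists with the greatest gain in rank lay in SLC66A2, ARHGAP39, LOC124900384, FLT4, PCMTD2 and PCSK6 and near DLL1 and EHMT1, with heights of 18 to 39 with dexamethasone and 9 to 16 in controls.

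GR peaks of the terminal windows mostly met H4K12la in control cells. Of the 290, 35.9% and 29.3% overlapped a peak with dexamethasone and 63.1% and 77.2% in controls (32.6% ± 4.63 with dexamethasone and 70.2% ± 10.0 in controls, SD, n = 2 each; two-sided exact permutation test p = 0.333, the smallest possible). Inward, the shares were 31.6% and 23.6% with dexamethasone and 67.3% and 74.1% in controls, and over all autosomes 40.6% and 32.2% with dexamethasone and 81.9% and 86.6% in controls. The terminal control shares were below those of all autosomes. Of the 290, 55, or 19.0%, met none in any list, against 10.5% over all autosomes and 21.8% inward. On 57 terminal GR peaks all 4 lists had a peak, and both dexamethasone heights lay below both controls at 51, or 89.5%, and above at 0, against 97.3% and 0.259% over all autosomes. A further 77, or 26.6%, met controls only, against 34.7% over all autosomes and 30.9% inward. Another 3 met dexamethasone peaks only, against 7 of 7879 over all autosomes and 0 of 721 inward, though the regions they lie on also hold control peaks beside them.

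GR occurred on 234 terminal regions, 5.74%, against 3.84% over all autosomes. At gene ends it was found at 238 of 697 terminal coding genes, a share of 34.1% against 33.2% over all autosomes, so GR at coding genes was near the background. The longest terminal GR peaks after that of 1p were at TMEM18 on 2p with 1309 bp, over the tRNA genes TRA-TGC3-1 and TRK-CTT2-2 on 5q with 1235 bp, and at DEAF1 and EPS8L2 on 11p with 1186 bp. Those in ADPRHL1 on 13q and at KLHL17 and PLEKHN1 on 1p had 1159 and 1112 bp. H4K12la at TMEM18 was 29 and 24 with dexamethasone and 84 and 96 in controls, and at PLEKHN1 it was 23 and 24 with dexamethasone and 44 and 70 in controls.

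Promoters with a GR peak were described by 3 motifs. The GC box (GGGCGG or CCGCCC, either strand), the element that Sp1 family factors bind, was in 84.6% of 195 terminal promoters with a GR peak, in 67.1% of all 684 terminal promoters and in 56.6% of 21156 autosomal coding promoters. The GR half-site AGAACA or its reverse complement TGTTCT was in 8.72%, 10.8% and 11.7% of the same sets. The telomere unit TTAGGG or CCCTAA was in 8.21%, 6.87% and 8.92%, and 1 match lies in the NCAPG2 promoter shown above. The 1865 inward promoters held the GC box in 65.1%, the GR half-site in 9.12% and the telomere unit in 7.99%. Matches of TTAGGG and GGGCGG can share the letters GGG, and those of CCGCCC and CCCTAA the letters CCC. The 195 promoters with a GR peak belonged to 164 genes. Their median share of G and C bases was 72%, against 69% in terminal and 62.7% in autosomal promoters. Base composition was not allowed for, and motifs were not counted in promoters with a GR peak outside the terminal windows. All motif counts are matches of letters and say nothing of binding.

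**Figure D4:**
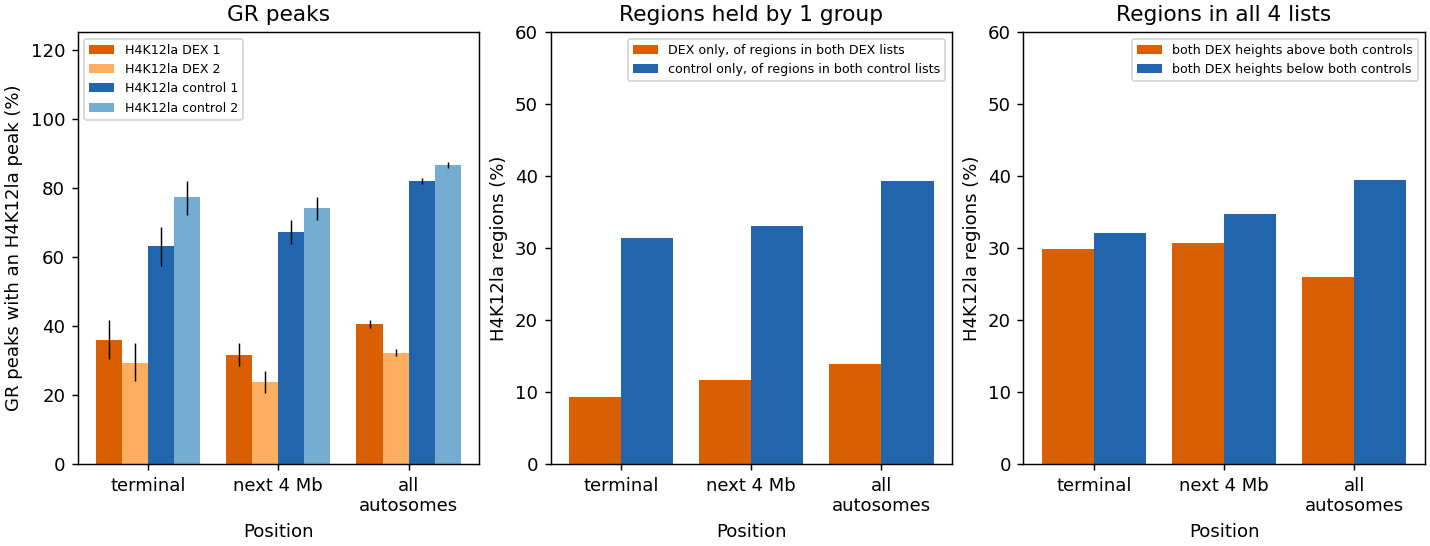
Percent of GR peaks with an H4K12la peak in each library (left, bars with 95% exact intervals), percent of regions held by 1 group alone (middle), and percent of regions in all 4 lists with both dexamethasone heights above or below both controls (right), for terminal windows, the next 4 Mb and all autosomes. The terminal and inward bars lie close to each other, and the lower share in regions of all 4 lists is 32.1% terminal and 39.4% over all autosomes.

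Among protein-coding genes at the ends, the share with a peak in controls alone was near that of all autosomes. A peak at a gene end was found for 40.3% and 32.7% of the 697 terminal genes with dexamethasone and 62.6% and 63.6% in controls. Of 396 genes with a peak in both controls, 116 had none in either dexamethasone list, 29.3% against 31.4% over all autosomes. Of 154 genes in all 4 lists, both dexamethasone heights lay below both controls in 108, 70.1% against 82.5% over all autosomes and 67.6% inward, and above in 14, against 5.3% over all autosomes. In the 300-base promoters, the terminal share was below that of all autosomes: 20.8% and 14.7% of 523 terminal genes had a peak with dexamethasone and 30.02% and 40.3% in controls, against 26.2% and 20.6% with dexamethasone and 49.4% and 53.8% in controls over all autosomes. The inward shares were below those of all autosomes too, at 19.8% and 16.1% with dexamethasone and 35.8% and 43.0% in controls. Of the 144 terminal genes with a promoter peak in both controls, 59 had none with dexamethasone, 41.0% against 43.3% over all autosomes and 45.7% inward. Neighbouring genes can share a window, which 45.3% of terminal genes did.

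Heights and classes of the named genes below are those of peaks at gene ends, so a gene without one can still hold peaks within its span. The background over autosomal coding genes was 82.5% lower with dexamethasone among those in all 4 lists, 31.4% control-only among those in both control lists, and 33.2% with GR. Of 13 chromatin and transcription genes, 5 had a peak in all 4 lists, each with both dexamethasone heights below both controls, where 82.5% did over all autosomes. In the same list 3 of the 10 with a peak in both controls were control-only, and 8 of 13 had GR. The lists are small, and nothing is read from their distance to the background. PTBP1, the polypyrimidine tract binding splicing regulator, had 28 and 34 with dexamethasone and 174 and 149 in controls, and at its promoter 0 and 0 with dexamethasone and 174 and 149 in controls. BRD9 had 82 and 78 with dexamethasone and 119 and 99 in controls, and at its promoter 0 and 0 with dexamethasone and 119 and 99 in controls. PRMT2, an arginine methyltransferase, had 31 and 26 with dexamethasone and 68 and 146 in controls. DEAF1 had 15 and 0 with dexamethasone and 88 and 83 in controls, and TBP, the TATA-binding protein, had none with dexamethasone and 81 and 85 in controls.

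Of 11 genes of DNA replication, repair and telomere maintenance, 3 had peaks in all 4 lists, 2 of them lower with dexamethasone, 4 of the 8 in both control lists were control-only against 31.4% over all autosomes, and 6 had GR against 33.2%. NCAPG2 had 47 and 41 with dexamethasone and 134 and 156 in controls. RTEL1, the helicase that unwinds telomere loops, had no gene-end peak with dexamethasone and 138 and 128 in controls, although its span held 5 and 4 peaks with dexamethasone and 10 and 7 in controls. A GR peak lay at a gene end of RTEL1 and at another of its RefSeq promoters, and none overlapped the promoter printed above. ANKLE2, a nuclear envelope protein, had 102 and 92, the thymidylate synthase gene TYMS had 64 and 81, and the recombination gene RAD52 had 62 and 53 in controls. None of the 3 had a gene-end peak with dexamethasone, although the span of each held peaks in both dexamethasone libraries. At its promoters RAD52 had 25 and 28 with dexamethasone and 90 and 96 in controls, with a GR peak.

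In a list of 12 genes drawn up for mitochondria, energy and lactate carriers, 1 had peaks in all 4 lists and 1 was dexamethasone-only. Of the 8 in both control lists, 5 were control-only against 31.4% over all autosomes, and 7 of the 12 had GR against 33.2%. The list also holds the splicing gene TXNL4A and the RNA polymerase III subunit gene POLR3K, which the name of the class does not cover. TXNL4A was the 1 gene in all 4 lists, POLR3K was among the control-only genes, and both had GR. SDHA had 38 and 0 with dexamethasone and 66 and 99 in controls. SIRT3, a mitochondrial deacetylase, had none with dexamethasone and 48 and 66 in controls. MRPL28, a mitochondrial ribosomal protein gene, had 37 and 0 with dexamethasone and 43 and 69 in controls, and POLRMT, the mitochondrial RNA polymerase gene, had none with dexamethasone and 38 and 31 in controls. CPT1B, the muscle form of carnitine palmitoyltransferase, had gene-end peaks of 32 and 27 with dexamethasone and none in controls, and is named after its values were seen. Its whole span held 1 and 1 peaks with dexamethasone and 3 and 1 in controls, and it shares a gene-end window with a neighbour. Dexamethasone-only genes were 2.83% of autosomal coding genes with a peak in both dexamethasone lists. BSG, the chaperone of lactate transporters, had a gene-end peak of 23 in control replicate 1 only, while its whole span held 2 and 2 peaks with dexamethasone and 4 and 3 in controls.

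Of 13 signalling genes, 2 had peaks in all 4 lists, both lower with dexamethasone, 1 of the 6 in both control lists was control-only against 31.4% over all autosomes, and 7 had GR against 33.2%. TRIB3, a stress-induced pseudokinase, had 29 and 24 with dexamethasone and 110 and 113 in controls. The decoy receptor TNFRSF6B, next to RTEL1, had 44 and 0 with dexamethasone and 100 and 89 in controls. No H4K12la peak lay within its span or at its promoter, so these are peaks beside the gene, in a window shared with a neighbour. The Src family kinase YES1 had 27 and 21 with dexamethasone and 65 and 87 in controls. Of 7 interferon and innate immunity genes, 1 was in all 4 lists: IFITM3, an antiviral membrane protein, had 40 and 28 with dexamethasone and 83 and 84 in controls, with a GR peak, and SIGIRR was control-only.

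In the alpha-globin region of 16p, 1 of 9 genes was in all 4 lists, and 3 of the 4 in both control lists were control-only against 31.4% over all autosomes. NPRL3, the housekeeping gene that holds the globin enhancers, had 32 and 33 with dexamethasone and 95 and 192 in controls. At their gene ends MPG, a DNA glycosylase, had 58 and 51 and RHBDF1, an inactive rhomboid protease, had 53 and 47 in controls alone, although the span of RHBDF1 held 2 and 1 peaks with dexamethasone. HBA1 and HBA2, the alpha-globin genes, had no peak in any list. Of 13 terminal genes of families duplicated between ends, 2 were in all 4 lists, both higher with dexamethasone where 5.3% were over all autosomes. In the same list 2 were control-only and 7 had no gene-end peak, among them DUX4, whose span held the tall region given above. WASHC1 had 53 and 56 with dexamethasone and 46 and 47 in controls, and the forkhead gene FOXD4 on 9p had 31 and 37 with dexamethasone and 16 and 23 in controls.

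On 12q, 4 of 6 zinc finger genes had a peak in both control lists, and all 4 were control-only against 31.4% over all autosomes, and 4 of 6 had GR against 33.2%, at low control heights, with ZNF140 at 33 and 27 and ZNF26 at 28 and 32. As a check on other cell types, 15 of 20 tissue-restricted genes had no gene-end peak in any H4K12la list and 3 had one in all 4, with none control-only, where 191 of 697 terminal and 5188 of 18973 autosomal coding genes had no gene-end peak in any of them. Those without a peak were beta-defensins, neutrophil proteases and CYP2E1 among others. The highest of the rest was IQSEC3, a synaptic gene, with 28 and 0 with dexamethasone and 60 and 57 in controls.

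**Figure D5:**
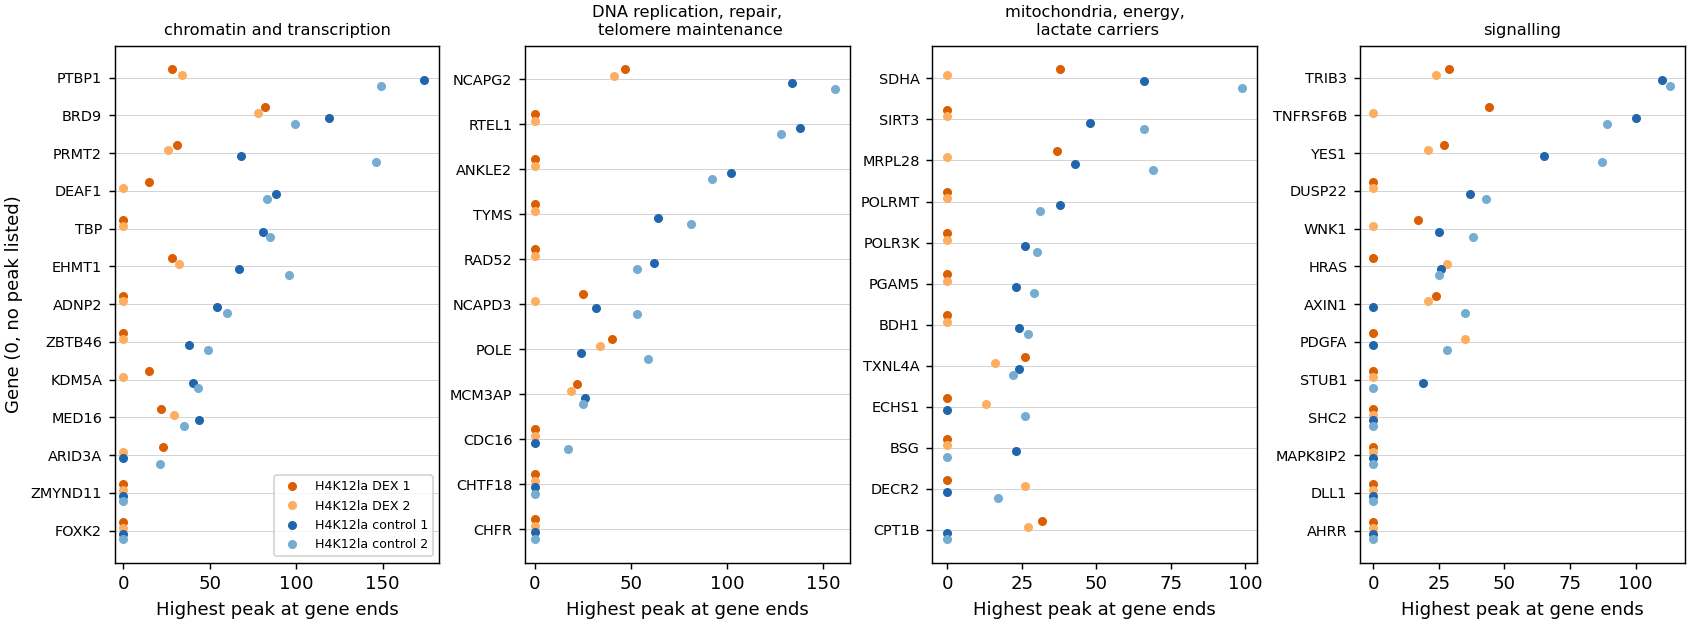
Highest deposited H4K12la peak height at the gene ends (x axis) of the terminal members of 4 gene lists (rows), with 1 point per library and 0 where no peak is listed. PTBP1, NCAPG2 and TRIB3 have control points above 100 and dexamethasone points below 50.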

How the data were processed

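Each of the 5 libraries has its own peak list. Those of H4K12la give position, length in bp, summit and a whole-number signal at the summit (height), all set by the authors before they deposited them, and that of GR gives position and length only. The row numbers of the GR list have gaps, so GR counts may cover part of the called peaks. The submitters' processing notes name fastp 0.19.6, Bowtie2 and deepTools, and GRCh38 (hg38) as the build. No source used here names the peak caller or the handling of reads with several matches. Read totals were not used here either, so depth is unknown, a longer or taller list can come from a deeper library, and intervals cover counting error only. Heights were ranked within a list for the choice of named regions. Ratios of heights, and calls of lower or higher heights, compared the lists at the heights as deposited, with no scaling for depth.

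Windows, merged regions (1 bp overlap), gene ends (1 kb) and promoters were computed with Python 3.11.15, pandas 2.3.3, numpy 2.4.6 and scipy 1.17.1, and figures were drawn with matplotlib 3.10.9. The scripts were tested on simulated peak lists. Gene positions and the sequences came from RefSeq, GRCh38.p14. Promoter sequences covered 79.6% of coding genes and none on chromosome 8. Libraries were compared with exact permutation tests, which measure only the spread between these libraries, and that spread may be technical. Members, gene lists and rules were chosen with earlier results of these data known. The text names the 8 leading regions of each class by rank, the 6 longest GR peaks, the 5 highest and 5 lowest ends, and up to 5 members a list by control rank. Family copies, tips and miRNAs were added after their values were seen.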

Additional observations from a re-analysis of the deposited data

Results flagged for a closer look

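At 3 ends the terminal to inward density ratio lay on one side of 1 in both dexamethasone libraries and on the other side in both controls, and the difference was not tested. At 6q the mean ratio was 0.825 with dexamethasone and 1.37 in controls. At 10q it was 1.21 with dexamethasone and 0.98 in controls, and at 11q 1.41 with dexamethasone and 0.818 in controls. At 2p, 10q and 14q both dexamethasone libraries held more terminal peaks than both controls, with ratios of mean peak number of 1.62, 1.37 and 1.67, where 31 of 39 ends had fewer, and this difference between ends was not tested either.

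A signal was also found outside the autosomal windows. The tallest peak in the last 1 Mb of the long arm of chromosome X, which the window rule leaves out, had a height of 319 and 254 with dexamethasone and 1170 and 1093 in controls, a contrast of the size seen at the autosomal tips. On the mitochondrial chromosome the tallest peak had 3008 and 2955 with dexamethasone and 6517 and 7370 in controls.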

How the results depend on the processing

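Of 108 values recomputed for 12 results under 19 alternatives, 86 kept their direction or moved by less than the stated spread. Against only the next 1 Mb, the density ratio was 0.994 in controls and 0.959 with dexamethasone, and the height ratio 0.983 in controls and 1 with dexamethasone. With terminal windows of 0.5 Mb, the density ratio was 0.983 with dexamethasone, the height ratio 1 with dexamethasone and 0.949 in controls, and there were 56 dexamethasone-only regions, against 216 with windows of 2 Mb. On short arms alone the control height ratio was 0.983. With heights of 20 or more, the dexamethasone to control ratio of peak number was 1.05 times as high in the terminal as in the inward windows, and 27.1% of GR peaks met H4K12la with dexamethasone. Requiring an overlap of 50% of the shorter interval gave 26.7%. With equal peak numbers the control-only share was 28.7%, the dexamethasone-only count 285, and the dexamethasone to control ratio 0.961 terminal and 0.974 inward, as lists of equal length require. With 1 library left out, the control-only share was 39.4% to 46.7% and the dexamethasone-only count 161 to 441, by construction, and the terminal dexamethasone to control ratio 0.599 to 0.714. The causes of the other shifts were not tested. Replicate numbers are shared without a stated link, and with the replicate block that ratio was 0.656, while deviations of same-numbered libraries over the 39 ends correlated at 0.26. Leaving out the outermost regions of all 39 ends, tips or not, and the 1p pseudogenes gave a control-only share of 31.1% and 105 dexamethasone-only regions. This alternative was chosen after seeing the data. Windows measured from the true chromosome ends were not run, since lengths were not used here. Precision is limited by the unknown depth and by 2 libraries a group.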
